A study of Mus musculus with 20 samples.

Results

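Mouse genes with the symbols Zfp900 to Zfp999 are mostly KRAB zinc finger genes, and their transcripts were followed here in mouse lung. The genes were chosen by symbol: protein-coding genes of the deposited expression table whose symbol is Zfp followed by a number from 900 to 999. That rule found 63 of the 54532 genes in the table, with numbers from Zfp930 to Zfp995, on 12 chromosomes. A single further symbol in the range belonged to a gene that is not protein-coding and was left out. The set was proposed after the response of these libraries to prednisone had been seen, so the members' differences between groups are given as a description. No member's p-value is printed, and a call says only that a member passed the threshold used for all genes.

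The RNA came from whole lung of wild-type mice in 4 groups with 5 libraries each. The prednisone group received the glucocorticoid prednisone, the SMD group received Shegan-Mahuang Decoction, a herbal formula used for wheezing, the model group was the asthma model, and the control group was the comparison for the model. The study text assigns 15 mice to each group, but the labels do not say which mouse gave each library or whether animals were pooled. Strain, age, doses, the way asthma was induced and the day of sampling are not given in the labels. The treatment labels name the prednisone and SMD groups without saying whether asthma was induced in them. The library used here as prednisone replicate 5 has a group label numbered like that of replicate 1, and the number in its title was used. Because nothing states that libraries came from separate animals, the spread between libraries of a group may be partly technical.

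KRAB zinc finger proteins bind DNA through arrays of C2H2 fingers and recruit the corepressor TRIM28 through the KRAB box near their N terminus. TRIM28 in turn brings the histone methyltransferase SETDB1 and heterochromatin proteins of the HP1 family, and the best known targets are endogenous retroviruses and other transposable elements. The genes lie in clusters that grew by duplication, so neighbours are often near copies of each other. In mouse embryonic stem cells, deletion of the clusters on chromosomes 2 and 4 is known to release retroviral elements from silencing.

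The reading frames bore out the family name for nearly every member. A KRAB box was found by pattern in the longest reading frame of 60 of the 63 genes, the exceptions being Zfp956, Zfp957 and Zfp974. For Zfp974 it was found only when the coding parts of all its transcripts were read in every frame. The longest reading frames held between 0 and 21 C2H2 fingers by pattern, with a median of 11. Those of Zfp935, Zfp957 and Zfp972 held 0, and that of Zfp993 held 2. The start of the KRAB box is given for the 3 genes called higher in prednisone than in model lungs, Zfp973, Zfp931 and Zfp993, and for Zfp970, the member with the highest level. They are coding bases of GENCODE vM21 on GRCm38, 5′ to 3′, and capitals mark bases that differ from Zfp973.
Zfp973: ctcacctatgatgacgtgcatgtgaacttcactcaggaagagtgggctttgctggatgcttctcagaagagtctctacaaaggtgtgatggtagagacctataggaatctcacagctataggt
Zfp931: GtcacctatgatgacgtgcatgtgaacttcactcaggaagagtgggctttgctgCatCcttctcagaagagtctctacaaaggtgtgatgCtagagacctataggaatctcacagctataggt
Zfp993: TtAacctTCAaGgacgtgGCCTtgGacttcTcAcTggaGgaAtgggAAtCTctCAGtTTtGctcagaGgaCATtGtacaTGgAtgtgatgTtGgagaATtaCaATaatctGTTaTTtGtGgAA
Zfp970: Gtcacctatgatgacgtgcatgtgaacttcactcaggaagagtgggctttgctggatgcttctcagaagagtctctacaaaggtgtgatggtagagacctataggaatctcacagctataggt
Of these 123 bases, Zfp931 differed from Zfp973 at 4, Zfp970 at 1 and Zfp993, which lies in another cluster on chromosome 4, at 50. Zfp965, a further gene of the chromosome 2 cluster, had exactly the Zfp973 bases. Over the whole protein, Zfp965 and Zfp973 were identical at all 318 residues. Zfp931 matched Zfp973 at 75.8% of the residues of the shorter protein and Zfp993 matched it at 36.4%.

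The upstream sequence showed the same kinship. RefSeq promoter windows, running from 250 bases before to 50 bases after a gene's start on GRCm38.p6, were available within 1000 bases of the annotated gene for 52 of the 63 members. For Zfp982 and Zfp993, 1 window each lay farther from the gene and was left out. Those of Zfp973 at chr2:176670272-176670571 on the plus strand, of Zfp965 at chr2:175469775-175470074 on the plus strand and of Zfp931 at chr2:178078376-178078675 on the minus strand are shown 5′ to 3′, because these genes had higher mean values in prednisone than in model lungs; capitals mark the longest run shared base for base with the Zfp973 window.
Zfp973: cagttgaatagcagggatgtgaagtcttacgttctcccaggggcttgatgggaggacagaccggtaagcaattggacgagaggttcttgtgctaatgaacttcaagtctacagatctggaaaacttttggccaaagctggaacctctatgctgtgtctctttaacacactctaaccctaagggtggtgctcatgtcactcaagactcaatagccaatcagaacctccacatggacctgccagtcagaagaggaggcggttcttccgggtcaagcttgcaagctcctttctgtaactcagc
Zfp965: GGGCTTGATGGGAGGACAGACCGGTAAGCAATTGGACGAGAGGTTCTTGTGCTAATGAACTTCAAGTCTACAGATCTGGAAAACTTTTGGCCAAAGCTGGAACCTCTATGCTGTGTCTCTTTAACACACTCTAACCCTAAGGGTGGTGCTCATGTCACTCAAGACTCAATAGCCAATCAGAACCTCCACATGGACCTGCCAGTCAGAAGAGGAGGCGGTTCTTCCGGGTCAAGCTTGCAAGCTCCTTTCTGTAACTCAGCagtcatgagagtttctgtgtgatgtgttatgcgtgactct
Zfp931: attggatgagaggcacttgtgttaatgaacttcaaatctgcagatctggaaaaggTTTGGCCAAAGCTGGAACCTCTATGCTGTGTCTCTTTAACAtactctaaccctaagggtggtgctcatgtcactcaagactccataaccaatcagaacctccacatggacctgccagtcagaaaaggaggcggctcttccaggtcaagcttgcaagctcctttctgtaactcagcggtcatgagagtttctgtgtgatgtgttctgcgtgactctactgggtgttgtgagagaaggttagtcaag
The shared run was 260 bases for Zfp965 and 41 bases for Zfp931. Zfp966, Zfp967 and Zfp968 each shared a run of 194 bases with the Zfp973 window, and Zfp970 shared 152. The half-site TGTTCT, read on both strands, is the core of the element bound by the glucocorticoid receptor. It was found once each in the windows of Zfp931, Zfp970 and Zfp971 and not in the windows of Zfp973 or Zfp965. Among the 58 windows of members 24.1% held the half-site, and among all 32851 RefSeq promoter windows 19% did. The palindrome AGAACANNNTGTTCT, which contains the half-site, was in none of the members' windows and in 3 of all windows.

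Transcript levels were low for most of the family, and for nearly every gene the groups overlapped. Values are FPKM, fragments scaled to transcript length and library size, so levels of different genes are compared per length. A gene entered the tests if 5 libraries or more of the 20 reached 1 FPKM. That filter passed 38 of the 63 members, and 28 of them had 1 FPKM or more in every library. The median of the 38 mean levels was 3.30 FPKM, against 6.16 FPKM over all 15106 genes tested. Just inside the filter was Zfp982, with a mean of 0.90 FPKM and 6 libraries at 1 FPKM or more, and just outside was Zfp934, with a mean of 0.62 FPKM and 3 such libraries.

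Zfp970 stood above the rest of the family. It had 22.1, 15.2, 14.1, 16.8 and 19.8 FPKM in the prednisone libraries and 16.4, 10.7, 10.5, 15.6 and 14.1 FPKM in the SMD libraries. In the model libraries it had 14.1, 13.7, 41.9, 15.5 and 22.1 FPKM, and in the control libraries 13.2, 15.6, 13.7, 21.6 and 34.7 FPKM. 1 model library and 1 control library were far above the others, and all groups overlapped. Zfp984 came next at 6.14 ± 0.96 FPKM in prednisone, 6.32 ± 0.32 in SMD, 6.19 ± 0.43 in model and 5.86 ± 0.50 in control lungs (SD, n = 5 each). Zfp948 followed at 5.65 ± 0.46 FPKM in prednisone, 5.67 ± 0.37 in SMD, 5.87 ± 0.57 in model and 5.80 ± 0.51 in control lungs (SD, n = 5 each). For Zfp948 the group means differed by less than the spread within groups, and for both genes the ranges of all groups overlapped. Below these, neighbours in the order of levels overlapped widely, and Zfp932, known to repress retroviral elements in mouse embryonic stem cells, had 4.91 ± 0.80 FPKM in prednisone, 5.46 ± 1.50 in SMD, 5.34 ± 1.03 in model and 4.92 ± 0.76 in control lungs.

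**Figure D1:**
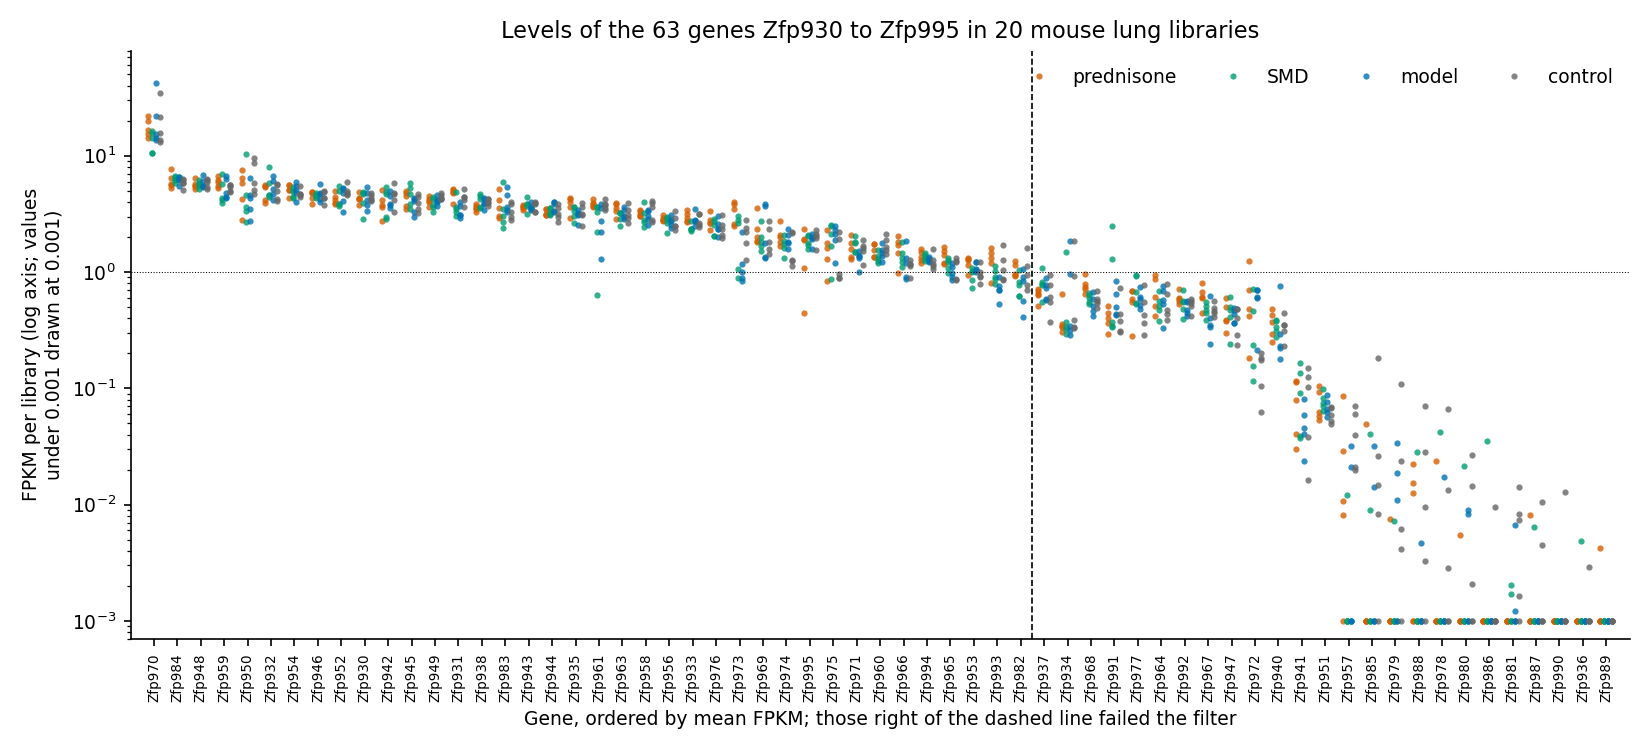
FPKM on a log axis for each of the 63 genes in each of the 20 libraries, coloured by group (prednisone, SMD, model, control); values under 0.001 FPKM are drawn at 0.001. The 38 genes left of the dashed line passed the filter, Zfp970 lies above all others, and the colours overlap in nearly every gene.

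The 25 members that failed the filter fell into genes nearer to it and genes near 0 FPKM. Values near 0 are not read as silence, because several of these genes share sequence with other genes, as given below. For 15 of them at least 1 library reached 0.1 FPKM, and the other 10 stayed below 0.1 FPKM in every library. Of these 10, 8 lay in the cluster on chromosome 4 between 145510759 and 147848366 (GRCm38), which held 16 members, 4 of which passed. None of the 63 was listed at 0 in all libraries. The highest of the failing genes was Zfp937, at 0.64 ± 0.08 FPKM in prednisone, 0.81 ± 0.19 in SMD, 0.71 ± 0.13 in model and 0.65 ± 0.22 in control lungs (SD, n = 5 each). Zfp934 showed 2 levels that cut across groups: 5 libraries lay between 0.91 and 1.86 FPKM, namely 1 SMD, 2 model and 2 control libraries, and the other 15 lay between 0.29 and 0.64 FPKM. Zfp968, a chromosome 2 gene, had 0.64, 0.79, 0.75, 0.71 and 0.96 FPKM in prednisone libraries, against 0.46, 0.51, 0.58, 0.67 and 0.42 FPKM in model libraries. The lowest prednisone value of Zfp968 lay inside the model range. Zfp972, named after its values were seen, had 0.69, 0.21, 0.70, 0.60 and 0.61 FPKM in model libraries, against 0.17, 0.18, 0.20, 0.10 and 0.06 FPKM in control libraries, without overlap. With the filter lowered to 0.1 FPKM, 2.48% of 23145 genes had model and control groups that did not overlap. In a fit with the filter lowered to 0.1 FPKM, where Zfp972 was tested, its difference of 0.44 ± 0.14 was not called.

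Prednisone was set against the asthma model to ask how the lungs of these groups differed. Of the 38 tested members, Zfp973, Zfp931 and Zfp993 were called higher in prednisone lungs and none was called lower. A call is an adjusted p under 0.05 from limma with Benjamini-Hochberg adjustment over all 15106 genes, and fold changes are differences of log2(FPKM + 1), given with their SE, a scale that understates the change of low genes. The 3 calls are 7.89% of the members tested, beside 8.04% of all genes called in either direction and 0.914% called higher; since the set was proposed with this comparison in view, nothing is read from these shares. Over all genes, 138 were called higher and 1077 lower. That split moved with the scaling between libraries, to 204 higher and 495 lower with median-of-ratios factors and 153 and 172 with quantile normalisation. A correction for exonic length and GC content gave 137 higher and 222 lower. At an unadjusted p under 0.05, 5 members were higher and none lower, beside 23.6% of all genes in either direction.

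Zfp973 differed most. It had 2.60, 3.48, 3.85, 2.49 and 4.02 FPKM in the prednisone libraries, against 0.84, 0.90, 1.00, 1.16 and 2.21 FPKM in the model libraries. Every prednisone value was above every model value, although model replicate 5 came close to the prednisone range. The log2 fold change was 0.96 ± 0.22, from means of 3.29 and 1.22 FPKM, and leaving out model replicate 5 gave 1.11. The gene lies on chromosome 2 at 176670522 to 176719085 on the plus strand and overlaps Gm14305. Gm14305 itself had 2.35 FPKM in prednisone and 2.16 FPKM in model lungs, a log2 fold change of 0.075 ± 0.10 that was not called. Whether counting used strand is not stated, so reads of the overlap cannot be assigned. Groups of 5 did not overlap for 1 of the 38 members, Zfp973, which is 2.63%, beside 7.58% of all genes.

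Zfp931 had 4.76, 4.90, 5.14, 3.82 and 5.11 FPKM in the prednisone libraries, against 3.12, 3.69, 2.92, 4.01 and 3.09 FPKM in the model libraries. Of the prednisone libraries, 4 were above all model libraries and replicate 4 was below the highest of them. Its log2 fold change was 0.40 ± 0.11. Zfp993 had 1.32, 1.60, 1.19, 0.81 and 1.47 FPKM in the prednisone libraries, against 0.76, 0.53, 0.70, 0.70 and 0.90 FPKM in the model libraries. Prednisone replicate 4 again lay within the model range. Its log2 fold change was 0.40 ± 0.11. Leaving out single libraries ended these calls: that of Zfp931 was lost without model replicates 1, 3 or 5 or prednisone replicates 2, 3 or 5, with fold changes from 0.36 to 0.39, and that of Zfp993 without model replicates 1, 2 or 3 or prednisone replicates 1, 2, 3 or 5, with fold changes from 0.35 to 0.41.

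**Figure D2:**
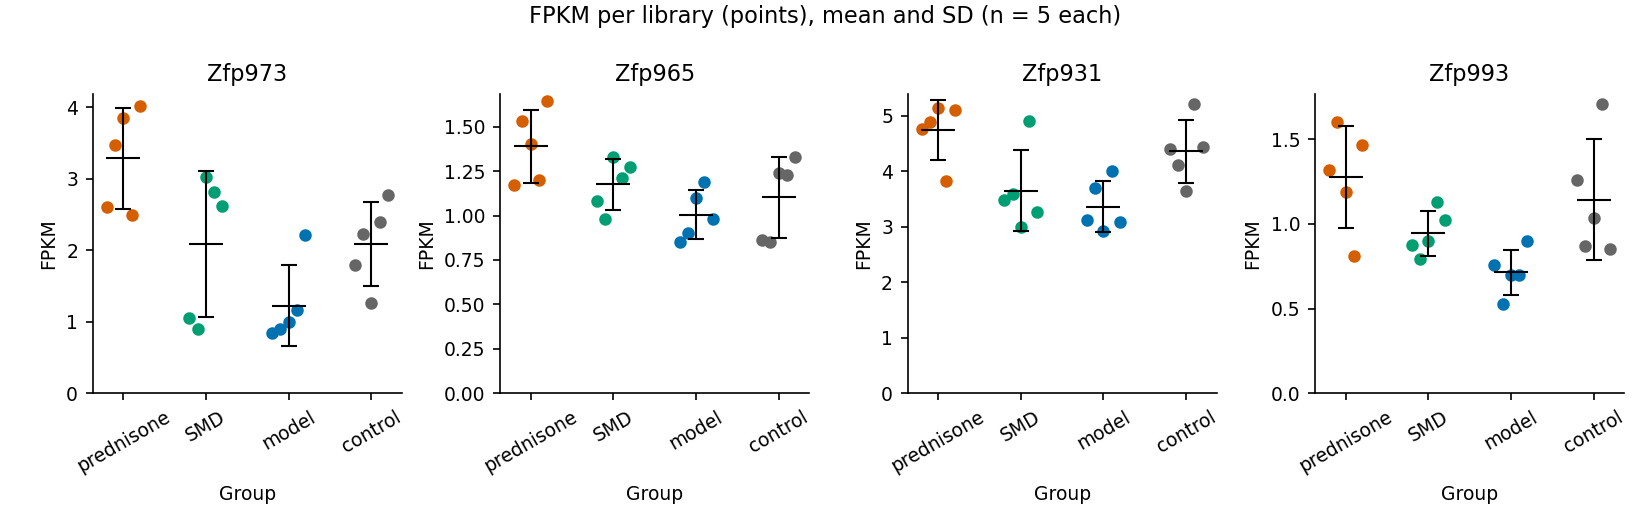
FPKM of Zfp973, Zfp965, Zfp931 and Zfp993 in each library (points), with the group mean and SD (n = 5 each), for prednisone, SMD, model and control. The 5 prednisone values of Zfp973 lie above the 5 model values, 2 SMD libraries lie near the model and 3 near the prednisone group, and in the other panels the groups overlap.

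The other members with large differences were not called. Zfp961 on chromosome 8 had 3.89, 3.63, 3.73, 3.81 and 4.24 FPKM in the prednisone libraries, against 3.86, 2.72, 3.55, 2.21 and 1.29 FPKM in the model libraries. Its fold change of 0.43 ± 0.23 came with a wide spread within the model group and a narrow one within the prednisone group, and it was 0.27 without model replicate 5. Zfp965, the protein twin of Zfp973, had 1.17, 1.53, 1.40, 1.20 and 1.65 FPKM in the prednisone libraries, against 0.85, 0.90, 1.10, 1.19 and 0.98 FPKM in the model libraries. The lowest prednisone value fell just under the highest model value, and the fold change was 0.25 ± 0.088. Zfp995 on chromosome 17 had the lowest fold change, −0.25 ± 0.16, with 2.33, 1.90, 1.09, 1.94 and 0.45 FPKM in prednisone libraries, against 1.95, 1.93, 1.58, 1.99 and 2.12 FPKM in model libraries. Prednisone replicates 3 and 5 lay below all model libraries, and without replicate 5 the fold change was −0.067. Of all 38 members, 25 had a positive and 13 a negative fold change, with a median of 0.052, where the median over all genes was −0.052.

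**Figure D3:**
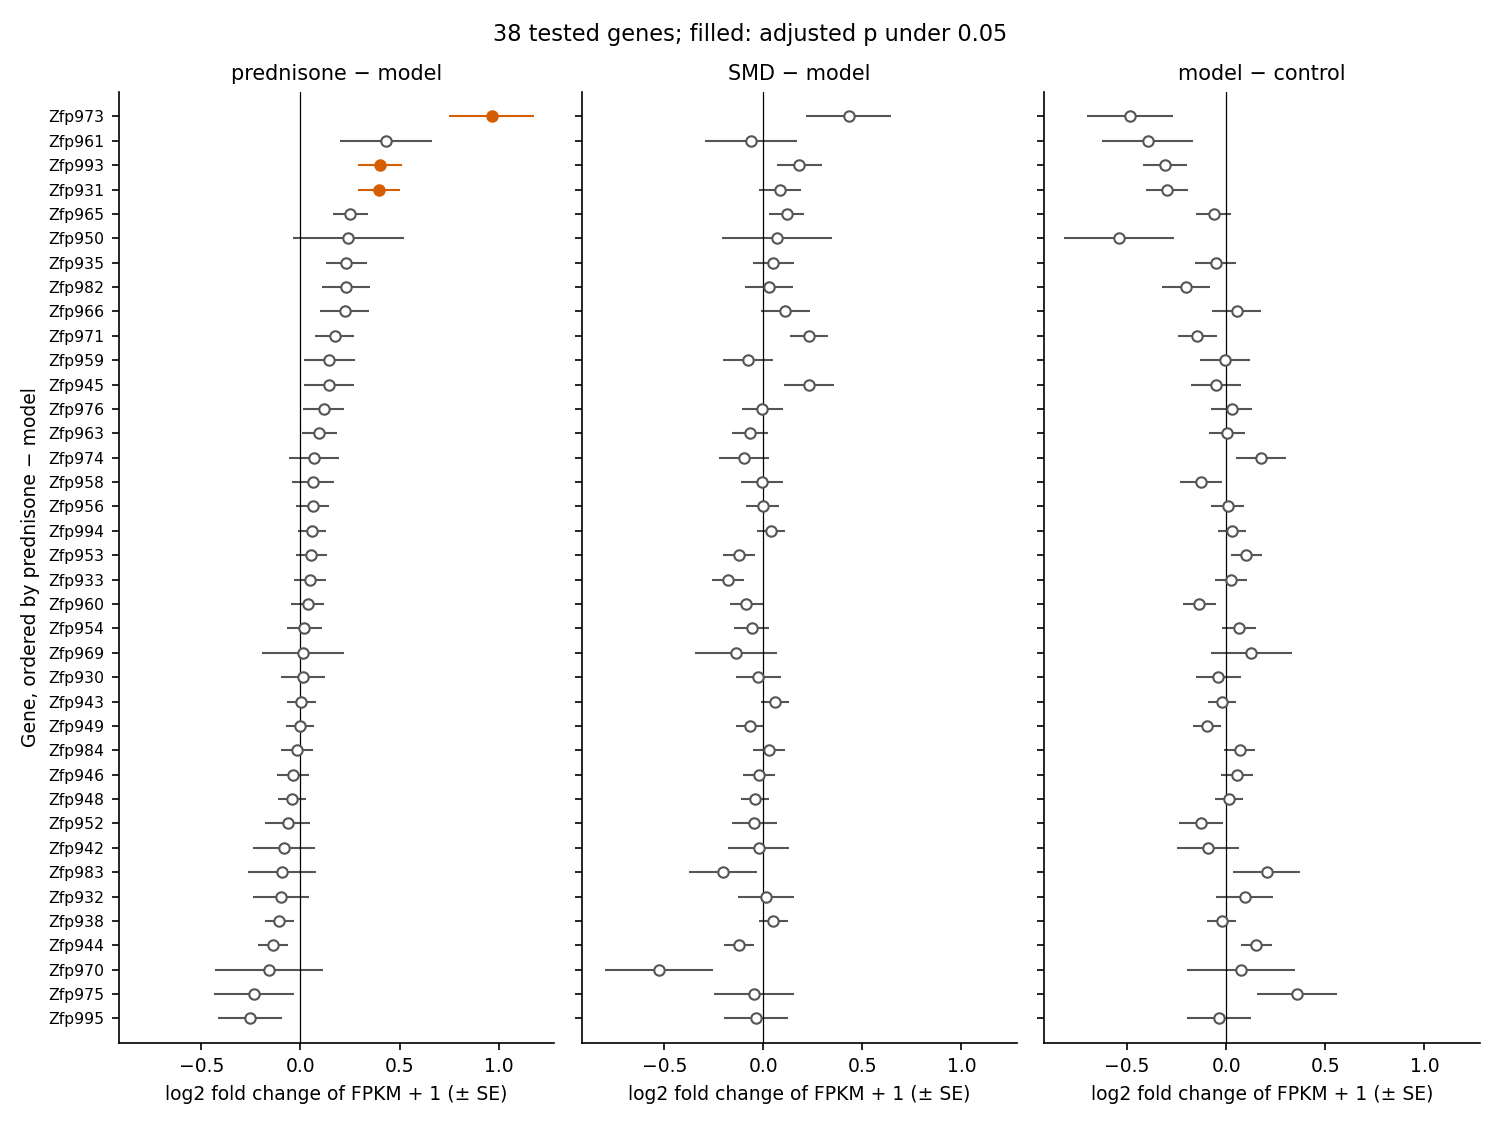
Log2 fold change of FPKM + 1 (points) with its SE (bars) for the 38 tested genes in prednisone against model, SMD against model and model against control, in the order of the first comparison. The 3 filled points (Zfp973, Zfp993 and Zfp931 in prednisone against model) were called; in the third panel these genes lie below 0.

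Sequence shared with other genes was concentrated in part of the family. Taking windows of 150 bases, the read length of the libraries, 12 of the 63 genes had more than 50% of their transcript windows present, base for base, in transcripts of another gene, while 23 had none. The median share over the 63 members was 2.24%. In the chromosome 2 cluster the median share was 71.1%, and it was 100% for Zfp967 and Zfp969, 92.2% for Zfp965, 83.3% for Zfp968, 71.5% for Zfp973 and 70.7% for Zfp966. Zfp973 shared most with Zfp965, and Zfp965 with Zfp973. Zfp931 shared 0.82% and Zfp970 6.48%. For Zfp993 the share was 60.9%, most of it with Zfp991 of the same cluster, and for Zfp935 it was 99.2%, with Gm49359. Values of these genes are therefore uncertain wherever reads could be split or dropped among copies, and how such reads were counted is not stated. Members on chromosome 4 had a median share of 23.82%, and members on chromosome 17 had a median share of 0%. Shorter windows of 50 bases gave larger shares, 23.3% for Zfp931 and 49.7% for Zfp970. With these windows the median over the 63 members was 20.05%, and 19 genes had more than 50%.

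The chromosome 2 cluster, from 175372436 to 178078476 on GRCm38, held 10 members and 28 other coding genes. Of the 7 members tested, 6 had a positive fold change in prednisone against model lungs, 2 were called higher, and the median was 0.22. Among the 15 neighbours tested, 8 were positive, none was called and the median was 0.021. The neighbours ran from −0.32 for Gm14322 to 0.22 for Gm14296, with Gm14288 at 0.21 and Gm14435 at 0.20. Some of them share sequence with members: 9.42% of the 150-base windows of Zfp971 were present in Gm14288. Of the 50-base windows of Zfp970, 27.84% were present in Gm14288. Members and neighbours were told apart by symbol alone, and the neighbours were not searched for KRAB boxes or fingers. Whether members differed from these neighbours was not tested. Zfp966 had 1.59 ± 0.40 FPKM in prednisone and 1.23 ± 0.40 FPKM in model lungs, and Zfp971 had 1.62 ± 0.32 FPKM in prednisone and 1.32 ± 0.19 FPKM in model lungs (SD, n = 5 each). Neither was called. The exception in sign was Zfp970, at −0.16 ± 0.27. Because copies share sequence, these 7 genes are not 7 separate measurements. In the chromosome 17 cluster of 10 members, 9 were tested, 3 had a positive fold change and the median was −0.044.

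**Figure D4:**
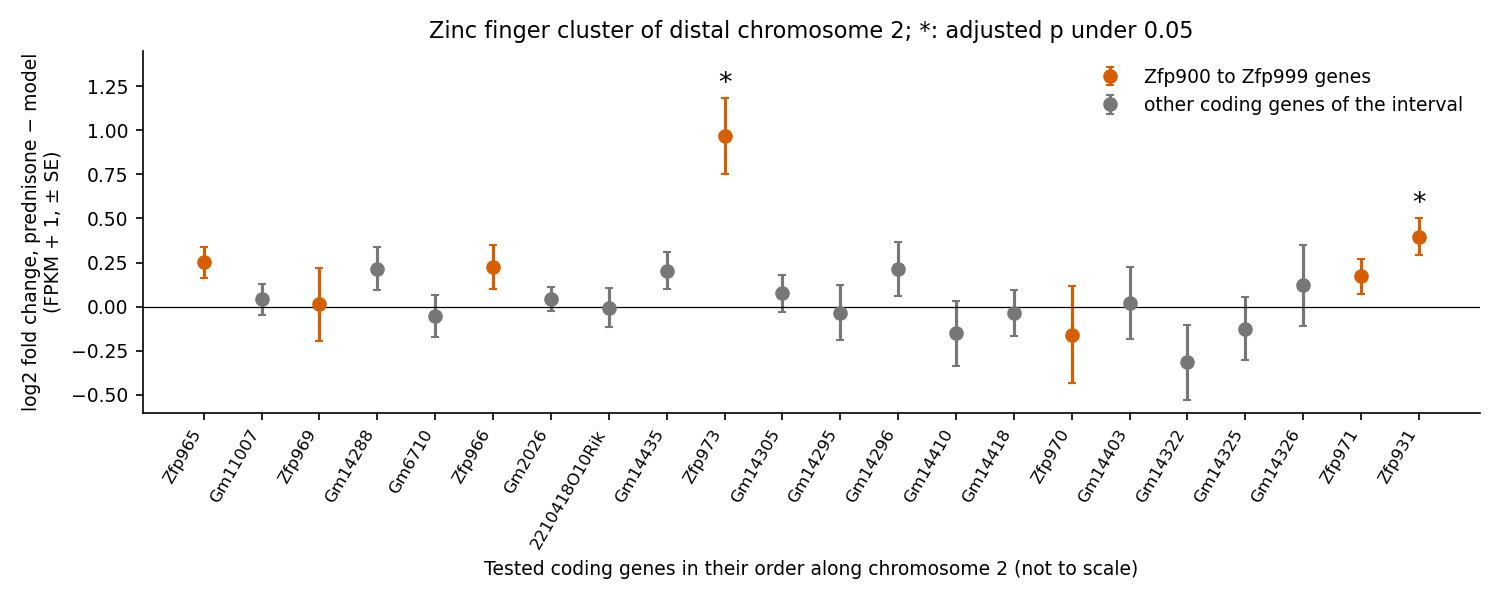
Log2 fold change of FPKM + 1 in prednisone against model (points, with SE) for the 22 tested coding genes of the cluster in their order along chromosome 2, with the 7 members and the 15 other genes in different colours. Zfp973 and Zfp931 carry the asterisk of a call. Beside Zfp973, Gm14435 lies at 0.20 and Gm14305 at 0.075, and neither was called.

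Exonic length was set beside the fold changes. In prednisone against model lungs the median fold change of all tested genes ran from −0.098 in the shortest of 5 length bins through −0.11, −0.075 and −0.026 to 0.042 in the longest, and the share called lower was 10.1% in the shortest bin and 1.23% in the longest. Members were shorter than the average tested gene, with a median exonic length of 2978 bases against 3728, and lower in GC content, 38.9% against 50.2%. Zfp973 has 2709 exonic bases, Zfp931 has 2299 and Zfp993 has 1275, each below both medians. Spearman's rho between exonic length and fold change was −0.19 over the 38 members and 0.27 over 15097 genes, given as a description because genes share libraries and sequence. With fold changes corrected for length and GC content, Zfp973 stood at 0.99, Zfp993 at 0.44 and Zfp931 at 0.39, and all 3 were called. With the replicate block added to this correction, only Zfp973 was called. The part of length in these fold changes was not tested.

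**Figure D5:**
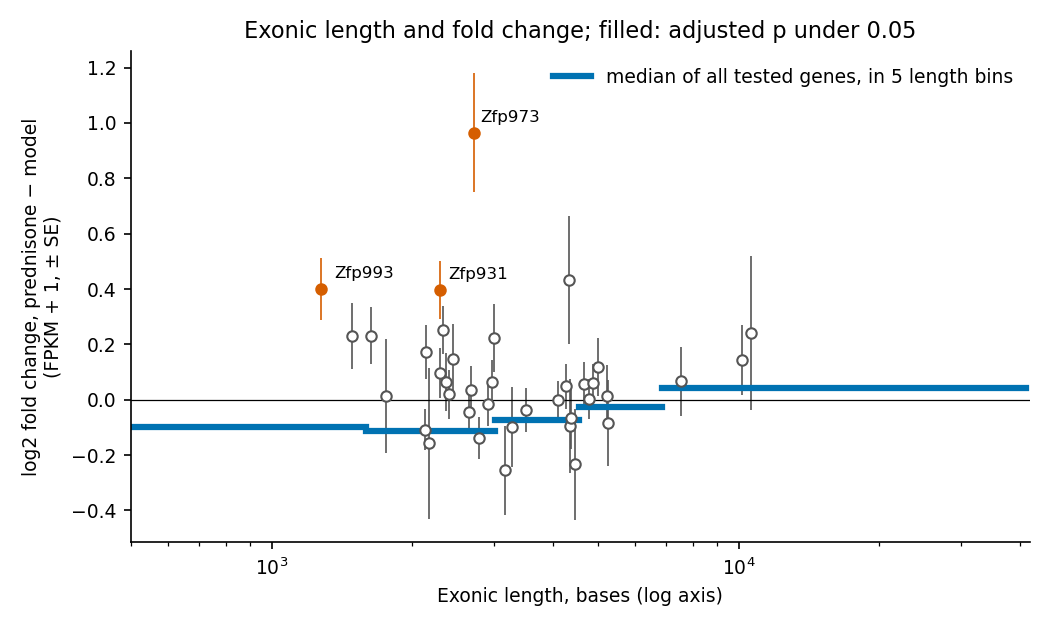
Log2 fold change of FPKM + 1 in prednisone against model, with SE, against exonic length on a log axis for the 38 tested genes; blue bars are the medians of all tested genes in 5 length bins. The called genes Zfp993, Zfp931 and Zfp973 (filled) have 1275, 2299 and 2709 exonic bases and lie above the bars, which run from −0.098 to 0.042.

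SMD was set against the model to ask the same of the decoction group. limma called none of the 38 members in either direction, beside 2.15% of all genes, and at an unadjusted p under 0.05 Zfp971 was higher and Zfp933 was lower, beside 18.9% of all genes. No tested member's groups were free of overlap, beside 4.62% of all genes. Zfp970 had the largest fold change, −0.53 ± 0.27, which rests on the model library at 41.9 FPKM: without it the value was −0.26, and with the mean of the fat genes as a covariate it was −0.29. Zfp973 had 1.05, 0.90, 3.02, 2.81 and 2.62 FPKM in the SMD libraries, against the model values given above. Of the SMD libraries, 3 were in the range of the prednisone group and 2 in that of the model, and the fold change was 0.43 ± 0.22. Zfp971 had 1.49, 1.49, 2.03, 1.78 and 1.81 FPKM in the SMD libraries, against 1.38, 1.00, 1.32, 1.50 and 1.38 FPKM in the model libraries. Model replicate 4 lay just above the 2 lowest SMD libraries, and the fold change was 0.23 ± 0.098, or 0.14 with the fat covariate. Of the members, 15 were positive and 23 negative, with a median of −0.023 beside −0.059 over all genes.

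The model was set against control lungs to ask what the disease model changed. limma called none of the 38 members, beside 0.192% of all genes, and at an unadjusted p under 0.05 Zfp973, Zfp993 and Zfp931 were lower and no member was higher, beside 15.8% of all genes. No tested member's groups were free of overlap, beside 3.17% of all genes. Zfp950 on chromosome 19 had the largest fold change, −0.54 ± 0.28, with 4.35, 2.76, 3.51, 6.37 and 4.62 FPKM in model libraries, against 4.68, 8.70, 5.84, 9.62 and 5.08 FPKM in control libraries. Model replicate 4 lay inside the control range. Zfp973 had 1.79, 2.23, 1.26, 2.40 and 2.77 FPKM in the control libraries, so that model replicate 5 was above 2 of them, and its fold change was −0.49 ± 0.22. Zfp961 had 3.76, 3.82, 3.40, 3.53 and 4.23 FPKM in the control libraries and a fold change of −0.40 ± 0.23, with 2 of the model libraries within the control range; without model replicate 5 it was −0.23. Zfp931 averaged 3.36 ± 0.46 FPKM in model and 4.37 ± 0.57 FPKM in control lungs, and Zfp993 averaged 0.71 ± 0.13 FPKM in model and 1.14 ± 0.36 FPKM in control lungs (SD, n = 5 each). The model libraries enter both this comparison and that with prednisone, so lower values in the model bear on both.

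SMD against prednisone gave no call by limma among the 38 members, beside 4.59% of all genes, with 1 member higher and 5 lower at an unadjusted p under 0.05, beside 19.5% of all genes. No tested member's groups were free of overlap, beside 6.08% of all genes. The largest fold changes were those of Zfp973 at −0.53 ± 0.22, Zfp961 at −0.49 ± 0.23 and Zfp970 at −0.37 ± 0.27. Zfp961 had 3.65, 0.64, 2.20, 3.30 and 3.65 FPKM in the SMD libraries, so 1 SMD library was far below the prednisone values given above, and without that library, SMD replicate 2, the fold change was −0.23. Without SMD replicate 4, 1 member was called. Against control lungs, limma called no member in either treated group. In SMD against control the share of all genes was 1.05%, with no member higher and 2 lower at an unadjusted p under 0.05, beside 14.5% of all genes. In prednisone against control it was 3.57%, with 3 higher and none lower at an unadjusted p under 0.05, beside 20.7% of all genes. Zfp973 averaged 3.29 ± 0.71 FPKM in prednisone and 2.09 ± 0.58 FPKM in control lungs (SD, n = 5 each). Zfp931 averaged 4.745 ± 0.54 FPKM in prednisone and 4.37 ± 0.57 FPKM in control lungs, a fold change of 0.099 ± 0.11. Zfp993 averaged 1.28 ± 0.30 FPKM in prednisone and 1.14 ± 0.36 FPKM in control lungs, a fold change of 0.091 ± 0.11. Neither Zfp931 nor Zfp993 passed an unadjusted p under 0.05 there.

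The spread of members within groups was that of other genes. The median SD of log2(FPKM + 1) within groups was 0.17 for the 38 members and 0.17 for all genes tested. Summed over the 63 genes without Zfp970, the level was 129 ± 6.3 FPKM in prednisone, 122 ± 8.0 in SMD, 121 ± 3.7 in model and 125 ± 7.8 in control lungs (SD, n = 5 each), and the ranges of all 4 groups overlapped. The number of members at 1 FPKM or more ran from 33 to 39 over all libraries.

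Partner genes of the KRAB system were read from a list of 31, of which 29 were tested. The list was chosen with earlier results of these data known, so its calls are given as a description. Trim28, the corepressor that KRAB boxes bind, was lower with SMD, at 26.8 ± 1.63 FPKM against 31.0 ± 1.54 FPKM in model lungs (SD, n = 5 each). Its fold change was −0.20 ± 0.048 with a limma adjusted p of 0.0346, and the call was lost under both other scalings and under the length and GC correction, with fold changes from −0.14 to −0.088. It was also lost with the replicate block, with only the 2 groups fitted, with the fat covariate, and without any 1 of model replicates 2, 3 or 5 or SMD replicates 2, 3 or 5. In prednisone lungs Trim28 averaged 28.2 ± 0.72 FPKM and was not called against the model, with a limma adjusted p of 0.101. In control lungs it averaged 27.53 ± 1.15 FPKM. Against control lungs Trim28 was not called in SMD lungs, at −0.039 ± 0.048, or in model lungs, at 0.165 ± 0.048. Hdac2, a histone deacetylase of repressor complexes, was lower with prednisone, at 32.5 ± 1.28 FPKM against 36.8 ± 1.48 FPKM in model lungs, a fold change of −0.18 ± 0.049 with a limma adjusted p of 0.0333. This call was lost under the same scalings and correction, with fold changes from −0.16 to −0.048. It was also lost with only the 2 groups fitted, with the fat covariate, and without any 1 of model replicates 2, 3 or 5 or prednisone replicates 2, 3 or 4. Control lungs had 35.25 ± 1.13 FPKM of Hdac2, and prednisone against control, at −0.11 ± 0.049, was not called. Suv39h1, which methylates histone H3 in heterochromatin, was higher with prednisone, at 5.18 ± 0.34 FPKM against 4.30 ± 0.22 FPKM in model lungs (SD, n = 5 each). Its fold change was 0.22 ± 0.058 with a limma adjusted p of 0.0258, and the call was lost with only the 2 groups fitted, with the fat covariate, and without any 1 of model replicates 1, 2 or 3 or prednisone replicates 2, 3 or 4. Control lungs had 4.725 ± 0.38 FPKM of Suv39h1, and prednisone against control, at 0.11 ± 0.058, was not called. Setdb1 had 8.43 ± 0.41 FPKM in prednisone, 7.44 ± 0.52 in SMD, 8.26 ± 0.60 in model and 7.43 ± 0.99 in control lungs, and Cbx5, which encodes an HP1 protein, had 12.6 ± 0.53 FPKM in prednisone, 12.3 ± 0.29 in SMD, 12.6 ± 0.82 in model and 12.6 ± 1.09 in control lungs. Neither was called in any comparison. No partner was called in model against control lungs, where 3 passed an unadjusted p under 0.05, beside 15.8% of all genes. Of the 29 partners, 3.45% were called in SMD against model lungs, beside 2.15% of all genes. In prednisone against model lungs 6.90% were called, beside 8.04% of all genes.

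Zinc finger genes with lower numbers, Zfp1 to Zfp899, gave 236 tested genes for comparison. In prednisone against model lungs 1 of them was called higher and 2 lower, 1.27% in all, with a median fold change of 0.0089. In SMD against model lungs 1 was called lower. Whether the members differed from these genes was not tested.

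Marker genes of lung and of other tissues were summed in each library. The labelled tissue was borne out by 10 lung markers, such as the surfactant genes, whose summed level was between 50903 and 73125 FPKM in every library. The summed level of 11 fat genes was 18.5 to 78.0 FPKM in prednisone, 12.3 to 32.4 in SMD, 25.3 to 339 in model and 47.5 to 591 FPKM in control libraries, and none of the 11 was listed at 0 throughout. The SMD and control ranges did not overlap, and those of every other pair of groups did. For 9 cardiac muscle genes the sums were 73.5 to 247 FPKM in prednisone, 95.6 to 156 in SMD, 126 to 250 in model and 150 to 527 FPKM in control libraries. With the fat genes' mean as a covariate the prednisone fold changes were 0.92 for Zfp973 and 0.43 for Zfp931, both still called, and 0.43 for Zfp993, which was no longer called. The 8 B cell genes summed to 23.1 to 56.8 FPKM in prednisone, 34.4 to 58.3 in SMD, 27.4 to 72.3 in model and 40.1 to 93.4 FPKM in control libraries, and the part of cardiac and B cells in the members' values was not tested. In whole lung, fewer cells of a type and less RNA per cell cannot be told apart. The FPKM of a library summed to between 377639 and 446711, except in control replicate 1 at 522361, where small non-coding RNA genes took 7.5%.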

How the data were processed

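Lung RNA of 20 mice or mouse pools (4 groups, 5 libraries each) was sequenced as 150-base read pairs, per the labels' protocols. The values are FPKM as deposited by the authors; fastp, HISAT2, featureCounts, DESeq2 and the build GRCm38 are named in the submitters' processing notes without versions or roles, and the program that made the FPKM, its annotation, its strand setting and the read depth are not stated there. Gene names, lengths and reading frames came from GENCODE vM21, which matched 54495 of 54532 table genes; promoters came from RefSeq (GRCm38.p6). log2(FPKM + 1) was tested with limma 3.58.1 in R 4.3.3 (moderated test with trend, two-sided) over 15106 genes with 1 FPKM or more in at least 5 libraries, in 1 fit of 4 group means, with Benjamini-Hochberg adjustment over all genes and a threshold of 0.05; 6 comparisons were made. The script was tested on simulated data. Alternatives were another pseudocount (0.1), other filters, scalings, a length and GC correction, replicate number as a block, a fat covariate and leaving out each library. Named members were the 3 highest in level, the 6 largest changes in prednisone against model and the 3 largest in 3 other comparisons, and all called. The members and gene lists were chosen with earlier results of these data known. Sequence patterns were searched with Python 3.11.15 and Biopython 1.88.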

Additional observations from a re-analysis of the deposited data

Results flagged for a closer look

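In Zfp950, SMD replicate 2 had 10.27 FPKM where the other SMD libraries had 2.68 to 4.64 FPKM, a gap of 0.742 of the group's range, above Dixon's critical value of 0.71 for 5 samples. In Zfp973, model replicate 5 had 2.211 FPKM where the other model libraries had 0.841 to 1.16 FPKM, a gap of 0.764 of the range. These 2 came from 44 groups of 5 examined, and chance flags about 1 in 20 such groups. Without that model library the prednisone fold change of Zfp973 was 1.11, against 0.96 with it.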

How the results depend on the processing

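In prednisone against model lungs the count of members called, 3, was 1 with no filter on low values and 1 with the replicate block together with the length and GC correction; leaving out 1 library at a time gave 1 to 3. The count of 1 came without model replicates 1 or 3 or prednisone replicates 2, 3 or 5, and in each case it was Zfp973. The count was 2 with the replicate number as a block, with quantile normalisation, with only the 2 groups fitted and with the fat covariate. Zfp973 was called in all 30 alternatives, with a log2 fold change from 0.90 to 1.42. Zfp931 lost its call in 8 and Zfp993 in 13, and the cause was not tested. The 30 include the fits without a control or SMD library. Those fits cannot move a fold change of prednisone against model, and they kept all 3 calls. In SMD against prednisone, where no member was called, leaving out 1 library at a time gave 0 to 1, the 1 being Zfp931 without SMD replicate 4. With a pseudocount of 0.1 FPKM, log2 fold changes over 1.5 times those reported were 0.74 for Zfp993, −0.46 for Zfp995 and 0.43 for Zfp965 in prednisone against model lungs, 0.65 for Zfp973 and 0.36 for Zfp971 in SMD against model lungs, and −0.77 for Zfp973 in model against control lungs, with calls unchanged. The other 4 comparisons had 0 members called under every alternative run. Replicate numbers did not pair the libraries: only 6 of 30 same-number pairs had a correlation of deviations over 0.1 (−0.18 to 0.237), and 2 of 20 libraries matched best a library of their own number. Without read counts, no interval on counting error can be given, and levels under 1 FPKM are the least certain.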
